A study of Oryza sativa with 3 samples.

Results

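The nuclear 5-hydroxymethylcytosine (5hmC) capture peaks of the rice lines 93-11 and PA64s were compared. All peaks listed on chromosomes 1 to 12 of either line were taken, and the chloroplast and mitochondrial sequences were left out. This gave 3970 peaks in 93-11 and 2396 in PA64s, together 6366 of the 6622 peaks listed for these lines and of the 10250 listed in the whole series. A peak was called shared when it overlapped a peak of the other line by 1 bp or more, and otherwise it belonged to 1 line only.

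Both lines were sampled as young panicles 3 to 4 mm long from a hybrid rice test field, all at the same time, and genomic DNA was taken. 93-11 is an inbred indica line, and PA64s is a male-sterile line whose sterility depends on growing conditions. They are the pollen parent and the seed parent of the hybrid LYP9, whose library is the third of the series and is quoted beside single regions. No treatment differed between the lines according to the labels. The labels do not say how many plants went into a library. There was 1 library per line, so no test between the lines was possible and all differences below are descriptions of these libraries. A list of DNA peaks holds no expression markers, so the labelled tissue could not be checked.

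5hmC is made in animals by TET dioxygenases, which oxidise 5-methylcytosine. Plants have no known TET enzyme, and the amount and origin of 5hmC in plant DNA have been debated. In rice, 5-methylcytosine is densest over transposable elements and other repeats, which fill the heterochromatin around the centromeres. Selective chemical labelling moves an azide-bearing glucose onto 5hmC, to which biotin is clicked so that the fragments can be pulled down on streptavidin. The antibody to 5hmC that the labels also name was used for dot blots, per their protocol. No input or mock library was used when the peaks were called, so a place with many tags for another reason, such as extra copies in the genome, is listed like a place rich in 5hmC.

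The height of a peak is given as its pileup, the number of extended tags over the summit, divided by the library's total tags and multiplied by 1000000, abbreviated ppm. The library of 93-11 held 10007148 tags and that of PA64s 11948210. A single tag was therefore worth 0.0999 ppm in 93-11 and 0.0837 in PA64s. The lowest listed nuclear peak had a pileup of 10 tags in 93-11 and 11 in PA64s. The median was 2.30 ppm in 93-11 and 2.18 in PA64s, and the highest peak reached 16.5 and 13.4 ppm.

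93-11 had more peaks, and most of them were in 93-11 only, whereas most PA64s peaks were shared. The 93-11 list was 1.66 times as long as that of PA64s (95% interval 1.57 to 1.74, counting error only) with 0.838 times as many tags. Of the 93-11 peaks, 1550 were shared, which is 39.0% of the list (exact Clopper-Pearson 95% interval 37.5 to 40.6). The remaining 2420 peaks had no overlapping peak in PA64s. Of the PA64s peaks, 1567 were shared, or 65.4% (63.5 to 67.3), and 829 were in PA64s only. The list of 93-11 is longer, so these percentages are shares of lists of unequal length. Shared peaks covered 267 kb in 93-11 and 237 kb in PA64s, and peaks of 1 line only covered 297 kb and 101 kb.

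Shared peaks were higher and longer than the others in both lists. In 93-11 the median height of shared peaks was 3.70 ppm (quartiles 2.60 and 5.70), against 2.00 (1.60 and 2.50) for peaks in 93-11 only. In PA64s it was 2.59 (1.92 and 3.93) against 1.59 (1.34 and 2.01). Peaks of 200 bp or longer made up 25.2% of the shared and 7.73% of the single-line peaks of 93-11. In PA64s these shares were 17.9% and 8.93%. The middle of the distributions of shared and single-line peaks therefore lay apart in each line, but both kinds were present from the range of 1 to 1.5 ppm upward.

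The share of peaks that were shared increased with height up to 6 to 8 ppm in both lines and was slightly lower above. The PA64s list is the shorter one and its paired peaks are lower on the ppm scale, both of which enter a comparison of the lines at equal height, so the shares are given side by side as a description. Between 1 and 1.5 ppm, 44 of 613 peaks of 93-11 were shared, or 7.18% (5.26 to 9.52). In the same range 100 of 395 PA64s peaks were shared, or 25.3% (21.1 to 29.9). Between 2 and 3 ppm the shares were 33.5% of 1136 and 76.6% of 668 peaks. Between 4 and 6 ppm they were 82.0% of 423 and 91.6% of 261 peaks. Between 6 and 8 ppm they were 87.4% of 183 and 93.5% of 92 peaks. At 8 ppm or more, 177 of 214 peaks of 93-11 (82.7%, 77.0 to 87.5) and 61 of 66 of PA64s (92.4%, 83.2 to 97.5) were shared. Many of the unshared 93-11 peaks of this height lay in few places. Of the 37, 15 lay between 19 and 20 Mb of chromosome 4 and 6 between 20 and 21 Mb of chromosome 12.

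**Figure D1:**
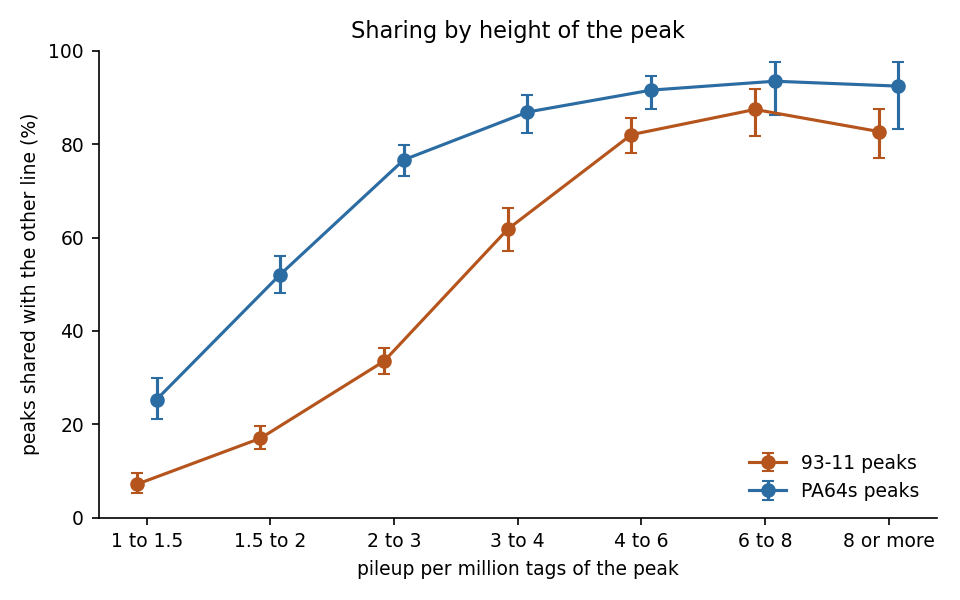
Percentage of nuclear peaks shared with the other line (y axis) by pileup (ppm) of the peak (x axis), for 93-11 (orange) and PA64s (blue). Points are shares of peaks in 1 library and bars are exact 95% intervals for counting error. The PA64s share climbs from 25.3% between 1 and 1.5 ppm to 93.5% between 6 and 8 ppm, and that of 93-11 from 7.18% to 87.4%, with slightly lower values of 92.4% and 82.7% at 8 ppm or more.

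Many of the single-line peaks lay far from any peak of the other line. The median distance to the nearest one was 33328 bp for the 93-11-only peaks and 11582 bp for the PA64s-only peaks. These distances are to lists of unequal length, 2396 peaks in PA64s and 3970 in 93-11, so the lines are not compared on equal terms. Within 500 bp of a peak of the other line lay 245 of the 2420 peaks in 93-11 only (10.1%) and 118 of the 829 in PA64s only (14.2%). More than 100000 bp away lay 770 peaks of 93-11 (31.8%) and 141 of PA64s (17.0%). The distant peaks had medians of 1.80 ppm in 93-11 and 1.42 in PA64s. Single-line peaks within 100000 bp had medians of 2.00 and 1.67 ppm, so both kinds were low. The shortest overlaps counted as shared were 1 bp on chromosome 6 at 15072139, 2 bp on chromosome 11 and 7 bp on chromosome 10. The nearest peaks that missed it were directly adjacent on chromosome 1, with 1.50 ppm in 93-11 and 1.09 in PA64s, then 6 bp apart on chromosome 8 and 11 bp apart on chromosome 7.

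Peaks of both lines that lay within 10 kb of each other were joined into 2374 groups. A shared peak was present in 766 of them (32.3%), which together held 2355 peaks of 93-11 and 1866 of PA64s. Groups of 93-11 peaks alone numbered 1169, and 961 of these were a single peak. Groups of PA64s peaks alone numbered 351, of which 312 were a single peak. The largest group without PA64s held 16 peaks and the largest without 93-11 held 5.

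Where both lines had a peak, its position agreed closely. Pairing each peak with the partner of longest overlap gave 1538 pairs, and in 1498 of them neither peak had another partner. The summits coincided to the base in 167 pairs (10.9%), lay within 10 bp in 1008 (65.5%) and within 50 bp in 1387 (90.2%). The median summit distance was 5 bp. A pileup counts tags extended to 83 bp in 93-11 and 81 bp in PA64s, and most of these distances are short beside that length.

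Shared pairs were higher in 93-11 than in PA64s as a rule. The median height was 3.70 ppm in 93-11 and 2.59 in PA64s, and the median ratio was 1.37 (log2 0.45, order-statistic 95% interval over pairs 0.43 to 0.47). The ratio was above 1 in 1350 of the 1538 pairs (87.8%) and below 1 in 188. A height at least 2-fold larger in 93-11 was found in 118 pairs, a background share of 7.67%, and the reverse in 3 pairs, or 0.195%. These shares depend on the scaling to total tags, which include organelle tags, and a scaling without organelle tags was not run. The unscaled median pileup of the pairs was 37 tags in 93-11 and 31 in PA64s. Relative to the median ratio, 15 pairs lay at least 2-fold on the 93-11 side (0.975%) and 15 on the PA64s side (0.975%), and the split above and below it was even by construction. With MACS's fold enrichment in place of the pileup, the ratio was above 1 in 1058 pairs (68.8%) and below 1 in 476, with a median of 1.17 (log2 0.22).

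Over all pairs the spread of the ratio exceeded the counting error, more clearly so in high pairs, but in low pairs it did not. The SD of the log2 ratio was 0.41, and the median counting error of a single pair was 0.35. Among 312 pairs with at least 50 tags in both lines, the SD was 0.32 and the median counting error 0.24. Among the 108 pairs with a mean height of 8 ppm or more these were 0.37 and 0.20. Among the 234 pairs with a mean height under 2 ppm the SD was 0.33 and the median counting error 0.47. Among the 475 pairs from 2 to 3 ppm these were 0.40 and 0.40. Variation between samples of a line is not part of the counting error and could not be measured with 1 library per line. Heights in both lines went together over the 1538 pairs, with a Pearson correlation of log2 heights of 0.86 and a Spearman correlation of 0.84, given as a description because peaks of 1 library share its depth. The median log2 ratio was 0.26 in the 234 pairs with a mean height under 2 ppm, 0.56 in the 303 pairs from 3 to 4, 0.58 in the 133 pairs from 6 to 8 and 0.42 in the 108 pairs of 8 or more. The lowest class is also limited by the listing threshold, since a pair needs a listed peak in each line.

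**Figure D2:**
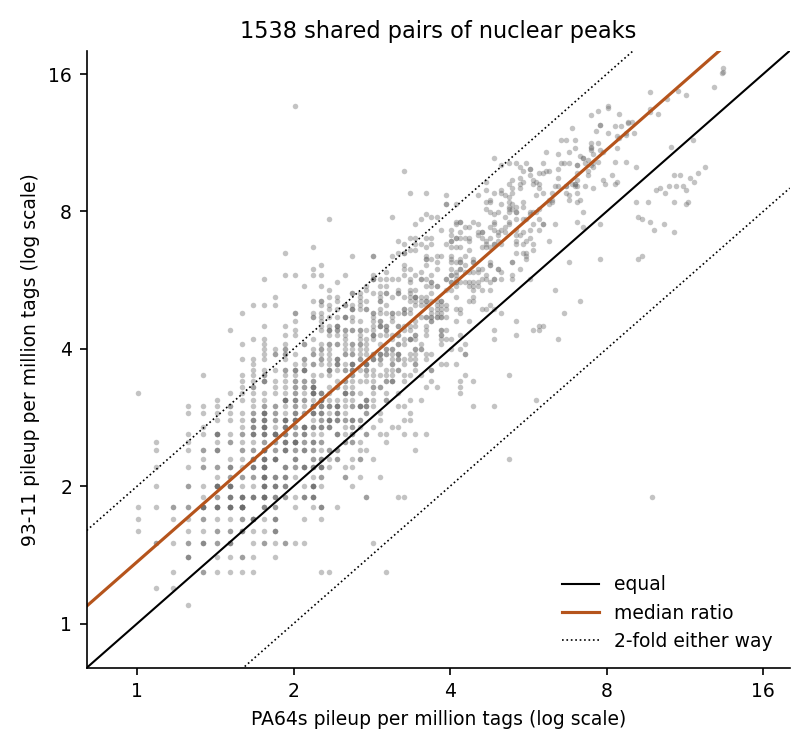
Pileup ppm tags of the 1538 shared pairs in 93-11 (y axis) and PA64s (x axis), both on log scales. Each point is 1 pair, the black line marks equal heights, the orange line the median ratio of 1.37 and the dotted lines a 2-fold difference either way. Most points lie above the line of equality, and 25 of the 108 pairs with a mean height of 8 ppm or more lie below it.

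The local background behind the peaks was also read from the files, as pileup divided by fold enrichment. Its floor is the genome-wide mean of the library, 2.13 tags in 93-11 and 2.48 in PA64s. A background of at least 2 times this floor was found at 31.2% of the shared and 9.01% of the single-line peaks of 93-11, and at 20.9% and 9.29% of those of PA64s. The pairs were then divided by it. In 596 pairs with a background under 1.2 times the floor in both lines, the median pileup ratio was 1.33 and the median ratio of fold enrichments 1.30. The background was derived from the fold enrichment, so these ratios nearly agree by arithmetic when both backgrounds lie near the floor. In 492 pairs with a background of 2 times the floor or more in either line, these ratios were 1.44 and 1.01. The median background of the latter pairs was 3.01 times the floor in 93-11 and 2.31 times in PA64s. In dense places the pileup was thus higher in 93-11 together with the surrounding tags, while the fold over these surroundings differed little.

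The direction was the same on each of the 12 chromosomes, with differences in size. The median log2 ratio ran from 0.31 on chromosome 1 (interval 0.17 to 0.54) to 0.60 on chromosome 10 (0.53 to 0.64). The intervals of these outer values overlapped narrowly. Chromosome 12, at 0.34 (0.30 to 0.45), and chromosome 4, at 0.39 (0.34 to 0.45), were among those with an interval below that of chromosome 10. By fold enrichment the order was another one, with 0.02 on chromosome 10 and 0.35 on chromosome 4. The median background of the pairs on chromosome 10 was 2.55 times the floor in 93-11 and 1.69 times in PA64s.

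Sharing also differed between chromosomes. Chromosome 10 had the highest share in both lines, with 53.0% of 415 peaks of 93-11 (48.1 to 57.9) and 75.3% of 295 peaks of PA64s (69.9 to 80.1). Chromosome 1 had the lowest share in both, with 23.6% of 284 (18.8 to 29.0) and 39.8% of 171 (32.4 to 47.5). The ratio of peak numbers was highest on chromosome 2, at 2.27 with 220 peaks in 93-11 and 97 in PA64s, and lowest on chromosome 10, at 1.41. Peaks in 93-11 only outnumbered those in PA64s only on every chromosome, by a factor of 2.11 on chromosome 1 and up to 4.05 on chromosome 2.

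**Figure D3:**
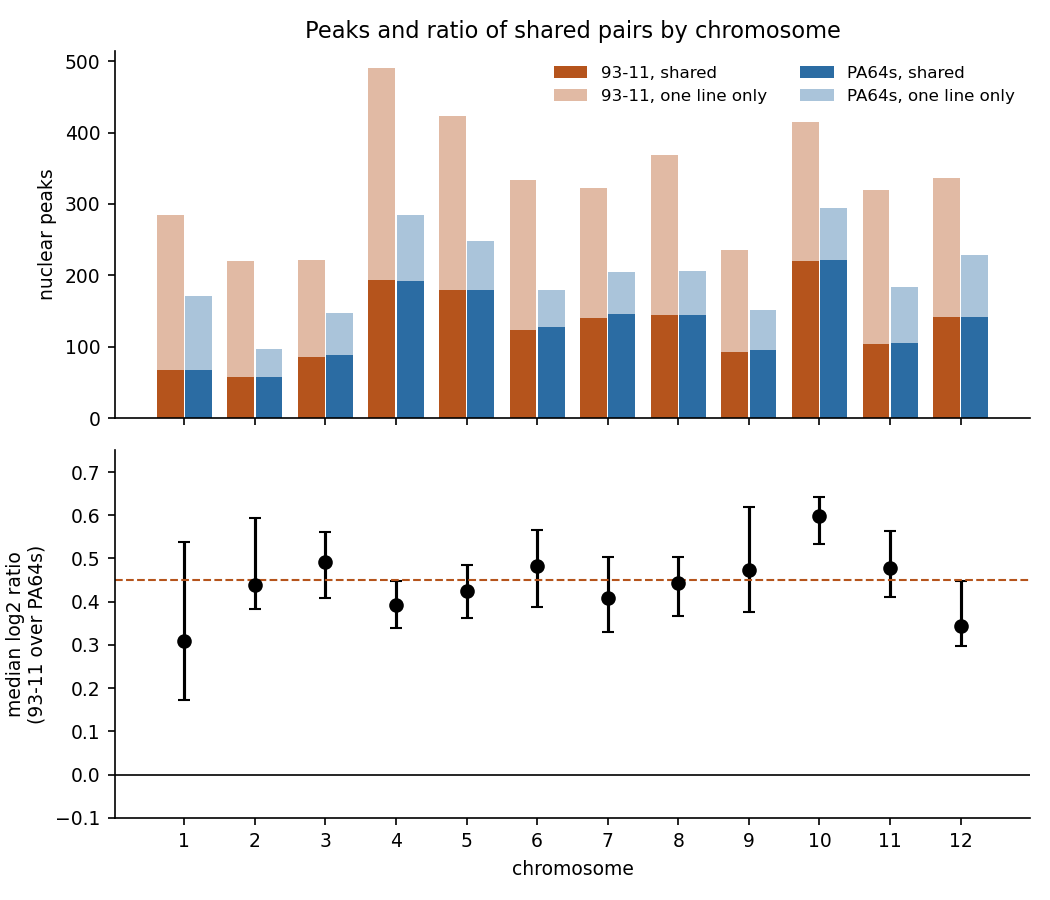
Top: nuclear peaks per chromosome in 93-11 (orange) and PA64s (blue), with shared peaks in full colour and peaks of 1 line only in pale colour. Bottom: median log2 ratio of pileup (ppm) in shared pairs with order-statistic 95% intervals over pairs, and the median over all pairs as a dashed line. Each median lies above 0, from 0.31 on chromosome 1 to 0.60 on chromosome 10.

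The shared pair with the highest mean height was taken on each chromosome. This choice needs a high peak in both lines, so it says nothing of strong sites that were not shared. The ratio of 93-11 over PA64s ran from 0.788 to 1.74 over these 12 pairs, and in 7 of them its exact interval for counting error held 1. The highest of all, chr3:28639272-28639451, had 16.5 ppm in 93-11 and 13.4 in PA64s, with 165 and 160 tags. Its pileup lies near the ceiling of 2 tags per bp of extended length, 166 and 162 tags, so that the scaled values mainly reflect the tag totals. The highest pairs of chromosome 2, with 162 and 160 tags, and of chromosome 6, with 150 and 154, lie at or near it as well, and all 3 are among the 7 whose interval held 1. On chr8:6836077-6836223 the pileup was 130 tags in 93-11 and 89 in PA64s, a scaled ratio of 1.74 (1.32 to 2.31). On chr7:9953214-9953878 the height was 13.3 ppm in 93-11 and 7.70 in PA64s, a ratio of 1.73 (1.31 to 2.28). In 4 of the 12 pairs the PA64s value was the higher one. These were chr1:39121226-39121540 with 9.29 ppm in 93-11 and 11.8 in PA64s, chr4:32700743-32701089 with 11.5 and 11.7, chr9:4722881-4723306 with 9.99 and 12.4, and chr12:20513697-20514955 with 9.49 and 11.5. The interval of the ratio held 1 at each of these 4 sites.

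The largest ratios in favour of 93-11 were found at single sites on several chromosomes. At chr1:16745801-16746134 the pileup was 136 tags in 93-11 and 24 in PA64s, or 13.6 and 2.01 ppm, a ratio of 6.77 (4.36 to 10.9). The summits lay 2 bp apart and LYP9 had 11.4 ppm there. The 93-11 peak was 334 bp long and the PA64s peak 109 bp. The next ratio was 3.37 (2.07 to 5.69) at chr6:1299418-1299551, with 6.50 ppm in 93-11 and 1.92 in PA64s. The other 6 of the 8 largest ratios lay between 3.01 and 3.28, on chromosomes 3, 6, 7 and 10. In 7 of the 8 pairs LYP9 had a peak as well, beside 1414 of all 1538 pairs. By fold enrichment, the ratio was 4.19 at the chromosome 1 site and 2.89 at the chromosome 6 site, and it was as low as 1.26 at chr7:28605449-28605673, where the background was 5.98 tags in 93-11 and 2.97 in PA64s.

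The largest ratio in favour of PA64s also lay on chromosome 1. At chr1:16911106-16911188 the pileup was 19 tags in 93-11 and 117 in PA64s, or 1.90 and 9.79 ppm, 5.16 times as high in PA64s (3.16 to 8.87). LYP9 had 4.17 ppm. The local background there was 2.13 tags in 93-11 and 8.58 in PA64s, so the ratio of fold enrichments was 1.53. The next ratios were 2.32 at chr6:4531261-4531379, with 13 and 36 tags and an interval above 1, and 2.26 (1.38 to 3.82) at chr3:19563028-19563112. At the chromosome 6 site the fold enrichment went the other way, with 6.02 in 93-11 and 3.72 in PA64s. A second pair on chromosome 3, chr3:19578160-19578280, had 1.50 ppm in 93-11 and 2.85 in PA64s, a ratio of 1.90 (1.01 to 3.75). The remaining 4 of the 8 had ratios from 1.72 to 1.89, and the interval held 1 in 3 of them.

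**Figure D4:**
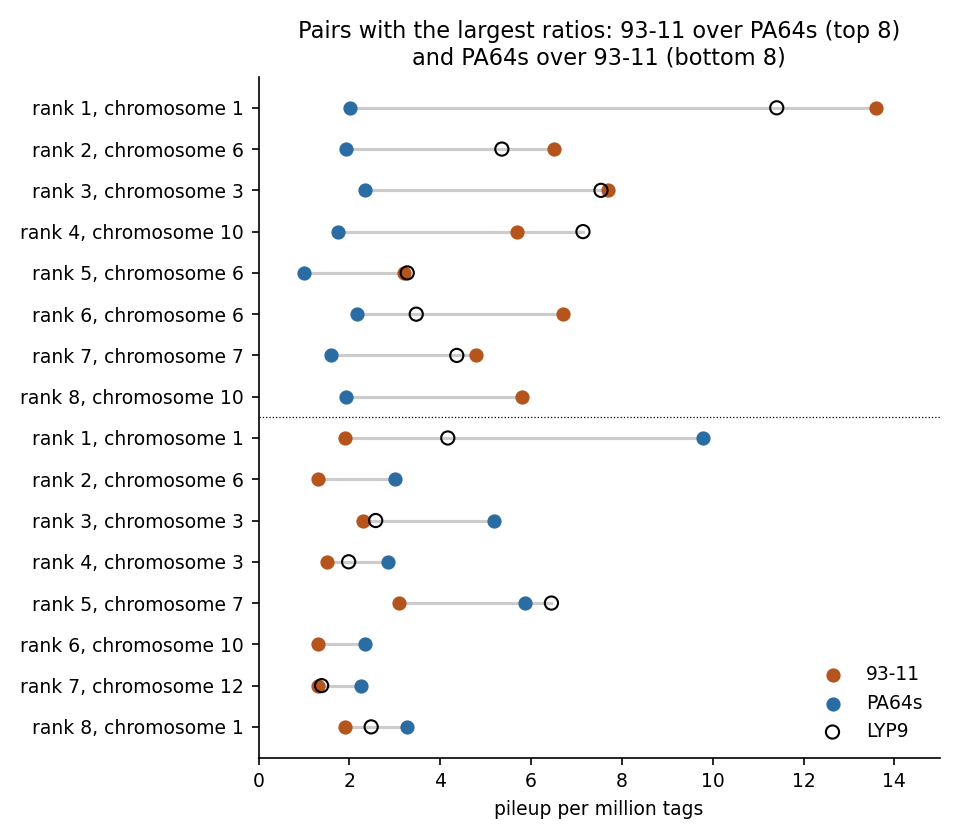
Pileup ppm tags (x axis) of the 8 shared pairs with the largest ratio of 93-11 over PA64s (top) and the 8 with the largest ratio of PA64s over 93-11 (bottom), with 93-11 in orange, PA64s in blue and LYP9 as open circles where it had a peak. Each value is 1 library, and the 2 outermost pairs, both on chromosome 1, reach 13.6 against 2.01 and 9.79 against 1.90 ppm.

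Pairs that were both high and higher in PA64s were concentrated in few places. Of the 526 pairs with a mean height of at least 4 ppm, 51 were higher in PA64s. The window from 20 to 21 Mb of chromosome 12 held 20 of these 51 pairs (39.2%), that from 32 to 33 Mb of chromosome 4 held 5, that from 4 to 5 Mb of chromosome 9 held 4 and that from 39 to 40 Mb of chromosome 1 held 3. The share of such pairs higher in PA64s was 9.70%, and 6.13% without the chromosome 12 window. Among pairs of 8 ppm or more it was 23.1%, and 15.3% without that window.

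The chromosome 12 stretch, chosen after its values were seen, ran for 165 kb from 20470560 to 20635078. It held 34 peaks in 93-11, 20 in PA64s and 33 in LYP9. All 19 shared pairs were higher in PA64s, by a median factor of 1.22, with log2 ratios from -0.57 to -0.06. The paired heights ran from 3.50 to 9.59 ppm in 93-11 (median 7.49) and from 4.27 to 11.5 in PA64s (median 9.37), so the ranges overlapped while each pair had the same order. Their median summit distance was 0 bp. The interval for counting error held 1 at chr12:20513697-20514955 and was not computed for the other pairs, so the order within single pairs is a description. In the same stretch 93-11 had 13 peaks without a PA64s counterpart, from 22 to 120 tags with a median of 7.89 ppm, and PA64s had 1 without a 93-11 counterpart. One of these 13, chr12:20601018-20601169, was the highest-scoring unshared peak of 93-11, with 120 tags and a fold enrichment of 56.4, and LYP9 had 93 tags there. It lay 4299 bp from the nearest PA64s peak. High shared pairs with the PA64s value above that of 93-11 thus stood among high peaks that were missing from the PA64s list.

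The shared mitochondrial peaks, left out of the nuclear comparison, had a similar median ratio and a wider range. Of 92 mitochondrial pairs, 91 were higher in PA64s, by a median factor of 1.22, with 8.79 ppm in 93-11 and 11.0 in PA64s, and their log2 ratios ran from -0.89 to 0.08. Within chr1:39112781-39126088 all 3 nuclear pairs were higher in PA64s, by a median factor of 1.27, and within chr9:4704272-4730732 all 3 were, by 1.24. Within chr4:32688822-32745160, picked in the same way, 5 of 7 pairs were higher in PA64s and 2 in 93-11, with a median factor of 1.12 and log2 ratios from -0.46 to 0.69. What organelle tags contribute to these nuclear values was not tested.

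The peaks in 93-11 only included high ones. At least 4 ppm was reached by 136 of them (5.62%), of which 33 lay on chromosome 4, 24 on chromosome 12 and 18 on chromosome 10. These chromosomes held 297, 196 and 195 of the 2420 peaks in 93-11 only. Of the 33 on chromosome 4, 16 lay between 19 and 20 Mb. Of the 24 on chromosome 12, 12 lay between 20 and 21 Mb and 9 between 13 and 14 Mb. After the chromosome 12 peak at 20601018, the highest scores were at chr12:13341646-13341833 with 11.7 ppm in 93-11, chr7:12136909-12137300 with 12.2, chr4:9828890-9829039 with 10.8, chr12:13404123-13404313 with 10.3 and chr12:5611089-5611233 with 8.99. Each of these 6 sites had a LYP9 peak, at 9.23, 9.03, 11.7, 8.43, 9.33 and 7.64 ppm in the order given. Of all 136 peaks of at least 4 ppm in 93-11 only, 115 overlapped a LYP9 peak. The nearest PA64s peak was between 2.94 and 70.1 kb away from the 6 sites. A stretch of chromosome 12 from 13341646 to 13409479 was chosen after its values were seen. In it 14 of the 18 peaks of 93-11 were unshared, while all 4 shared pairs were higher in PA64s, by a median factor of 1.37. An interval was computed for only 1 of these pairs, with 13 tags in 93-11 and 27 in PA64s, and it held 1. The whole window from 13 to 14 Mb held 13 pairs, with a median log2 ratio of 0.11 towards 93-11.

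A stretch of chromosome 4 stood apart in 93-11. From 19219224 to 19233805, a span of 14.6 kb, 93-11 had 16 peaks and PA64s none, and LYP9 had 10. The 16 peaks held 68 to 117 tags, with a median height of 9.64 ppm, and the local background was 23.5 to 71.3 tags, which gives a fold enrichment of 1.64 to 2.89. In LYP9 the 10 peaks had 6.25 to 11.2 ppm and a background of 21.2 to 60.8 tags. Both the peaks and the tags around them were thus many times above the floor of 2.13 tags in 93-11. Whether PA64s had more tags there than elsewhere is not shown by a peak list. This stretch falls within the second longest series of 93-11-only peaks, 20 with no PA64s peak between them. The longest and the third longest series were low. A series of 21 on chromosome 11 spread over 1227 kb from 14581535, with a median of 1.90 ppm, and a series of 17 on chromosome 4 covered 115 kb from 2658261, with 1.80.

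The peaks in PA64s only were fewer, and their longest series were short in span. At least 4 ppm was reached by 33 of them (3.98%), 10 on chromosome 12 and 8 on chromosome 1. These chromosomes held 87 and 103 of the 829 peaks in PA64s only. The highest score was at chr12:11990881-11991032, with 111 tags or 9.29 ppm in PA64s and 3.27 in LYP9. It belonged to the longest series, 15 PA64s peaks over 34.8 kb from 11971672 to 12006442 with no 93-11 peak among them. Their heights ran from 1.09 to 9.29 ppm with a median of 4.94. A LYP9 peak was present at 5 of the 15, beside 162 of all 829 peaks in PA64s only. The first shared peak past this series, at chr12:12009106-12009284, was shared and higher in 93-11, with 5.10 against 2.93 ppm. The second series held 12 peaks over 28.7 kb of chromosome 9, from 2779850 to 2808555, at 1.34 to 4.94 ppm with a median of 2.59. LYP9 listed no peak in that span. The next highest scores of PA64s alone were at chr12:20618173-20618317 and chr2:28715365-28715504, with 9.62 and 9.79 ppm, but these lay only 205 and 262 bp from a 93-11 peak. At chr6:14671536-14671860 PA64s had 7.03 ppm, with the nearest 93-11 peak 32.7 kb away and 2.58 ppm in LYP9.

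The pairs with the largest ratio in each direction lay in the same stretch of chromosome 1, from 16745801 to 16980981. It held 33 peaks in 93-11 and 41 in PA64s, of which 25 and 33 were unshared, and 8 shared pairs. The pairs split into 5 higher in 93-11 and 3 higher in PA64s, with log2 ratios from -2.37 to 2.76. The unshared peaks of 93-11 had heights of 2.00 to 4.90 ppm and those of PA64s 1.26 to 9.79. The median local background was 2.13 tags in 93-11, at the floor, and 4.87 in PA64s, above it. A series of 9 PA64s-only peaks filled 17.8 kb of it, from 16847859 to 16865663, and the unshared peak at chr1:16912112-16912360 had 117 tags, as many as the shared PA64s peak before it.

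Peak numbers in windows of 1 Mb went together in both lines, with a Pearson correlation of 0.93 and a Spearman correlation of 0.80 over 369 windows, given as a description because both lists were mapped to the same sequence. 93-11 had more peaks in 315 windows, PA64s in 31, and the numbers were equal in 23. The largest excess of 93-11 was between 2 and 3 Mb of chromosome 4, with 96 peaks against 59, and the next between 7 and 8 Mb of chromosome 8, with 67 against 39. Between 9 and 10 Mb of chromosome 5, 93-11 had 46 peaks and PA64s 19. The largest excess of PA64s was between 2 and 3 Mb of chromosome 9, with 34 peaks against 16, of which 27 were in PA64s only. It was followed by 12 to 13 Mb of chromosome 12, with 22 against 14, and by 16 to 17 Mb of chromosome 1, with 43 against 37. Shared pairs in the chromosome 9 window were still higher in 93-11, with a median log2 ratio of 0.50 over 7 pairs. Of 41 windows with at least 10 pairs, the median ratio was above 1 in 40. The exception was 20 to 21 Mb of chromosome 12, at a log2 of -0.25 over 22 pairs, and the highest was 0.97 between 18 and 19 Mb of chromosome 11 over 10 pairs.

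**Figure D5:**
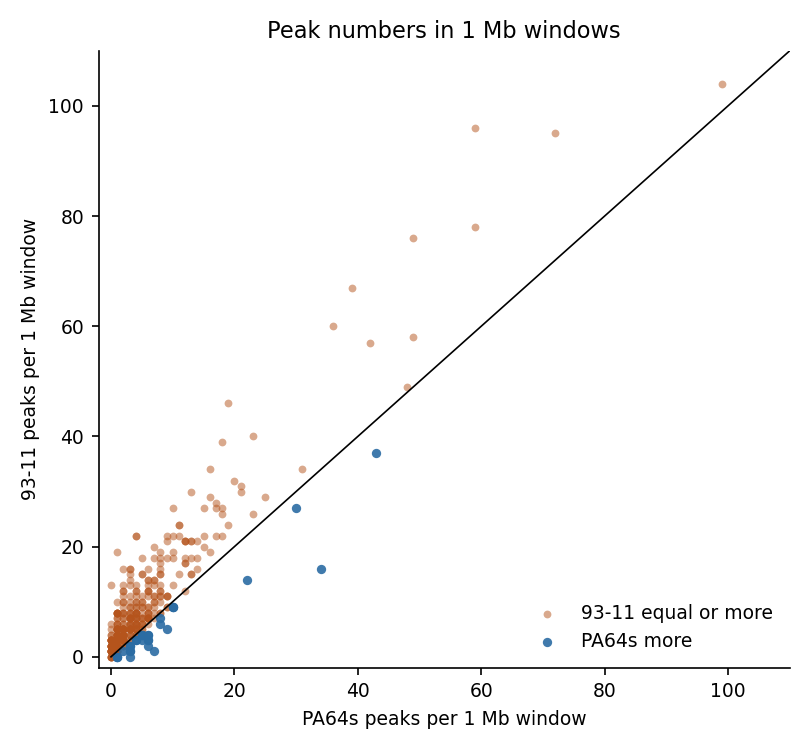
Peaks per 1 Mb window in 93-11 (y axis) and PA64s (x axis), with the line of equal numbers. Each point is 1 window. Of the windows shown, 369 had a peak of 93-11 or PA64s, and those with LYP9 peaks only lie at 0 on both axes. The 31 windows with more PA64s peaks are blue. The blue point farthest from the line is the chromosome 9 window with 34 PA64s and 16 93-11 peaks.

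The outermost listed peaks of the chromosomes were also compared, a choice made after the positions were seen. At 11 of the 24 chromosome ends the outermost peak of 93-11 overlapped that of PA64s. The height at these 11 was higher in 93-11 in each case, with medians of 4.90 and 3.35 ppm, beside 87.8% of all pairs. Not all of these peaks are near an end, since the first peak of chromosome 7 starts at 316556 and that of chromosome 12 at 160257 in 93-11. At the start of chromosome 8, chr8:124-324, it was 11.0 ppm in 93-11 and 6.95 in PA64s. At the start of chromosome 1, from position 6 in 93-11 and 8 in PA64s, it was 7.29 and 5.02. On chromosomes 2, 5, 7, 8 and 12 the last peaks ended within 20 bp of each other in the lines. Chromosome lengths of the build were not used, so the distance to the end itself is not given.

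Of the single-line peaks, 1076 of those in 93-11 only (44.5%) and 162 of those in PA64s only (19.5%) overlapped a LYP9 peak. Of the shared peaks, 1425 of 1550 in 93-11 (91.9%) and 1432 of 1567 in PA64s (91.4%) did. The peaks in PA64s only were also lower, with a median of 1.59 ppm against 2.00 for those in 93-11 only. The shares of 44.5% and 19.5% were not adjusted for height. From 1.5 to 2 ppm, 270 of 770 peaks in 93-11 only and 58 of 298 in PA64s only overlapped a LYP9 peak. From 2 to 3 ppm these were 448 of 755 and 42 of 156, and from 4 to 6 ppm 64 of 76 and 8 of 22. At 6 ppm or more the order was the other way, with 51 of 60 in 93-11 only and 11 of 11 in PA64s only. LYP9 had a peak at 1414 of the 1538 shared pairs. Its median height there was 3.67 ppm, beside 3.90 in 93-11 and 2.68 in PA64s, and its value lay between those of the parents at 819 pairs, above both at 441 and below both at 154. Where several LYP9 peaks overlapped a pair the highest was taken, whereas the parent peaks were matched by longest overlap. Pairs without a listed LYP9 peak are not in these counts. Both choices favour high LYP9 values.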

How the data were processed

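Genomic DNA of panicles was assayed, with 1 library per line. The submitters' processing notes name BWA 0.5.8. Each library had its own run of MACS 2.0.9 without a control, per the file headers, at a q-value cutoff of 0.01, with at most 2 tags per position and a regional background range of 10000 bp. Coordinates count from 1 and follow the files, whose build was not given in the sources used here. The deposited pileup is a coverage signal of extended tags, not scaled to library size. The deposited fold enrichment is the ratio of pileup to MACS's background, and the deposited −log10 p-value and q-value are those of the authors' peak caller. All values per peak are the authors'. Removal of redundant reads limits how high a pileup can get.

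From these, pileups were divided by the total tags of each library and multiplied by 1000000 (ppm), overlaps of 1 bp or more were found, and pairs were made by longest overlap. No test was run, since each line had 1 library. Intervals of shares, of count ratios and of a pair's ratio are exact binomial and cover counting error only, and those of median ratios are order-statistic intervals over pairs; tags without molecular identifiers are not independent molecules. A difference of 2-fold was used to count pairs. Regions named are, by rule, the 8 pairs with the largest ratio each way, the highest pair per chromosome, the 6 unshared peaks of each line with the highest −log10 p, the 3 closest misses and overlaps, the 3 longest series of unshared peaks per line and the 5 windows with the largest excess. The rule, the members and the alternatives were chosen with earlier results of these data known; stretches of chromosomes 1, 4, 9 and 12 were picked after their values were seen. Python 3.11.15, numpy 2.4.6, pandas 2.3.3, scipy 1.17.1 and matplotlib 3.10.9 were used, and the routines were tested on simulated data. No genome or annotation of the files' build was used here, so genes and sequences are not given.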

Additional observations from a re-analysis of the deposited data

Results flagged for a closer look

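The nuclear comparison leaves out peaks that are present on the organelle sequences of the same lists. Mitochondrial peaks numbered 105 in 93-11 and 121 in PA64s. Chloroplast peaks numbered 28 in PA64s, against 2 in 93-11.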

How the results depend on the processing

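Of 39 values recomputed under an alternative, 19 stayed within their interval or within 1.5 times the count, and 20 moved. A change of direction was assessed only for the median log2 ratio, which stayed above 0 under each of its alternatives. With an overlap of 50% of both peaks the shares of shared peaks were 34.1% in 93-11 and 56.5% in PA64s, and no pair (0) was 2-fold higher in PA64s. With a distance of up to 500 bp the shares were 45.2% and 70.3%. With a −log10 p of at least 15 in both lists they were 51.2% and 80.3%, the ratio of peak numbers was 1.55, and 67 and 1 pairs were 2-fold higher in 93-11 and PA64s. With at least 2 ppm, an alternative chosen after seeing the data for the shares, the shares were 45.4% and 80.9% and the ratio of numbers 1.76. Without chromosomes 4 and 10 the share in 93-11 was 37.1%. With fold enrichment the median log2 ratio was 0.22, and 72 and 6 pairs were 2-fold higher in 93-11 and PA64s. With ratios centred on their median both counts were 15. The centring makes the split around the median even, but it does not fix these counts. Scaling by fragment length as well as tags, also chosen after seeing the data, gave a median of 0.41. Merging peaks within 500 bp, all overlapping pairs, and leaving out pairs near the ceiling moved none of the results they were run on. The causes of these shifts were otherwise not tested. No paired analysis was possible because each line had 1 library. Tag totals of 10007148 and 11948210 limit low peaks, where a single tag is worth 0.0999 and 0.0837 ppm.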
